A study of Mus musculus with 18 samples.

Results

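KRAB zinc finger protein (KZFP) genes are kept in large clusters, and their repeated zinc finger stretches form units that the study catalogued as genomic elements. The 77 elements described here were those with expression values in the study that lay inside chr2:149942566-150299071 (cluster 8, 9 elements) or chr2:174843733-177803008 (cluster 9, 68 elements) of the mouse assembly mm9, out of 560 such elements in all. Shares are given beside those of all 560 elements and, for the main counts, of the 483 other elements. The members were thus chosen by position, without use of any peak.

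KZFPs bind DNA through arrays of C2H2 zinc fingers and recruit KAP1 (encoded by Trim28) through the KRAB domain. KAP1 in turn brings in the histone methyltransferase SETDB1, which deposits H3K9me3, a mark of silent chromatin, and KAP1 with H3K9me3 is known to lie over the zinc finger exons of many KZFP genes. H3K27ac marks active promoters and enhancers.

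The series held 18 samples, of which 6 peak lists of 1 library each were used. KAP1 and SETDB1 were measured in wild-type Hepa 1.6 cells, a hepatoma line of C57L origin derived from the BW7756 tumour. H3K9me3 and H3K27ac were measured in embryonic fibroblasts (MEFs) on the C57BL/6 background, either WT cells carrying the unexcised Kap1 loxP/loxP alleles or Kap1 KO cells. The study's methods give the strain of the MEFs as C57BL/6J. For RNA measurements the study's methods describe a single stably growing KO clone kept over many passages beside its unexcised counterpart; whether the same clone gave the histone libraries is not given in the sources used here. With 1 library per list, differences between genotypes had no replicate check and no p-value is given. KAP1 in Hepa 1.6 cells and histone marks in MEFs also came from different cell types.

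The lists held 13366 KAP1 peaks, 14425 H3K9me3 peaks in WT and 4319 in Kap1 KO MEFs, and 36275 and 36436 H3K27ac peaks in WT and Kap1 KO MEFs. The SETDB1 list held 2957 peaks, and all 2957 were also entries of the KAP1 list with the same score, so it was read as the KAP1 peaks shared with SETDB1 and not as an independent measurement. Each peak carries the score of the peak caller, which is larger for stronger enrichment over input and is not scaled between libraries. The H3K27ac lists fitted their MEF label: a peak lay within 1 kb of a transcript start for 10 of 10 fibroblast markers in both genotypes (Col1a1, Col1a2, Col3a1, Thy1, Pdgfrb, Twist1, Prrx1, Fn1, Vim and S100a4) and for 0 of 5 hepatocyte markers (Alb, Apoa1, Ttr, Serpina1a and Fgb) in either. Of the markers of other cell types, Cd68 and Pecam1 had such a peak in both genotypes, Krt8 in WT and Esrrb in Kap1 KO MEFs. Pou5f1, Nanog, Zfp42, Cdh1, Epcam, Ptprc, Cd3e and Cdh5 had none.

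The clusters differed in how they carried the KAP1 system. A KAP1 peak overlapped, by at least 1 base, 4 of the 9 elements of cluster 8 (44.4%, exact Clopper-Pearson 95% interval 13.7 to 78.8%) and 0 of the 68 of cluster 9 (0 to 5.28%), against 22.5% of all 560 elements and 25.3% of the 483 others. The SETDB1 list reached 3 of 9 and 0 of 68, against 11.1% of all and 12.2% of the others. A WT H3K9me3 peak lay over 3 of 9 and 0 of 68, against 22.1% of all and 25.1% of the others. The intervals cover counting error only, and neighbouring elements of a cluster are not independent. Of the elements with 50% or more of their 100-base windows found once in the genome, 2 of 5 in cluster 8 had KAP1, 1 of 5 a peak of the SETDB1 list and 0 of 5 WT H3K9me3, with 0 of 14 for each in cluster 9 and 23.3%, 8.72% and 24.6% of the 390 like elements elsewhere. The wide intervals of cluster 8 thus include the shares of the other elements, whereas no element of cluster 9 had a peak of any of the 6 lists.

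In Kap1 KO MEFs 0 of the 77 elements had an H3K9me3 peak (0.179% of all elements did). H3K27ac peaks overlapped 0 of the 77 in either genotype, beside 0.357% of all elements in WT and 0.536% in Kap1 KO cells. H3K27ac was thus not called over the zinc finger units, in these clusters or nearly anywhere else.

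In cluster 8 the strongest KAP1 peak over an element, with a score of 592, lay at chr2:150166976-150168870. It covered the element at chr2:150167492-150168554, which overlaps no annotated exon and sits inside the gene 3300002I08Rik. This peak was in the SETDB1 list, and a WT H3K9me3 peak with a score of 148 overlapped the same element. Without a host exon, the element still encoded 12 zinc fingers with 0 stop codons in its best reading frame.

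Zfp937 was the other element with both KAP1 and H3K9me3. Its coding exon at chr2:150064148-150065294, with 13 zinc fingers, lay under a KAP1 peak of score 345 that was in the SETDB1 list. WT H3K9me3 peaks with scores of 62.96 and 174.33 overlapped the element, and a further one of 58.31 lay 244 bp beyond it, within 1 kb of the 3′ end of the gene. The mark was thus called in pieces across the zinc finger exon and towards the gene end.

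Zfp442, with 17 zinc fingers the longest array of cluster 8, had a KAP1 peak of score 419 in the SETDB1 list over its coding exon and no H3K9me3 peak. Gm14139 had a KAP1 peak of 86, near the list minimum of 80 and outside the SETDB1 list. Gm10130 showed the reverse combination, with a WT H3K9me3 peak of 114.8 and no KAP1 peak, but this peak touched only the edge of the element and did not count when 50% of the shorter interval had to be covered. KAP1 in the hepatoma line and H3K9me3 in MEFs therefore coincided at 2 of the 5 elements that had either, Gm10130 included. The like count over all elements was not made, so this overlap cannot be called high or low. Zfp120, Gm10749, Gm14124 and Zfp345 had neither over the element.

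One zinc finger with the bases that follow it is shown for the 3 elements under a peak of both Hepa 1.6 lists, and for Gm14295, which had the most zinc fingers of cluster 9 (25) and no peak. Each is the first finger of canonical C2H2 spacing in its element, read 5′ to 3′ on the coding strand from mm9, with the codons of the cysteines and histidines that hold the zinc ion in capitals. The stretches lie at chr2:150064184-150064267 (plus strand), chr2:150168435-150168518 (minus), chr2:150235153-150235236 (minus) and chr2:176593736-176593819 (plus).
Zfp937: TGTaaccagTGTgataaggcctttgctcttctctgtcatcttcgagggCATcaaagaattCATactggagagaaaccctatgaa
Element inside 3300002I08Rik: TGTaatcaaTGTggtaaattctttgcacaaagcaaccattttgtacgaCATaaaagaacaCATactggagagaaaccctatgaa
Zfp442: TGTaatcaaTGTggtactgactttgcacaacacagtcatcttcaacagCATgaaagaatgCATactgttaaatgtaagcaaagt
Gm14295: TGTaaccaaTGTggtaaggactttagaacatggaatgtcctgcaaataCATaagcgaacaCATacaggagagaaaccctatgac
Over the 63 bases of the finger itself, compared position by position, Zfp937 differed from the element inside 3300002I08Rik at 22, from Zfp442 at 16 and from Gm14295 at 27. The bases after the last capitals in Zfp442 differ from the linker of the others, and its stretch lies only in part under the KAP1 peak. These are single fingers, and whole arrays were not compared in this way.

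KAP1 also lay beside the units of cluster 8. At Zfp345, whose element at chr2:150297732-150299071 had no peak, a KAP1 peak of 336 in the SETDB1 list (chr2:150295586-150296345) and a WT H3K9me3 peak of 164.35 (chr2:150295477-150296205) lay within 1 kb of the 3′ end of the gene, over the pseudogene Gm14127. Beyond Gm14139, a KAP1 peak of 347 in the SETDB1 list (chr2:150023168-150024095) overlapped a WT H3K9me3 peak of 52.59. The remaining KAP1 peaks away from elements were weaker, with scores of 111 between genes and 89 over an exon of 3300002I08Rik. In all, 5 of the 8 KAP1 peaks of cluster 8 were in the SETDB1 list (62.5%, interval 24.5 to 91.5%), beside 22.1% of the whole KAP1 list. The whole list held weaker peaks, with a median score of 149 beside 340.5 in cluster 8. Over all 560 elements, 126 had a KAP1 peak and 62 a peak of the SETDB1 list. The share in cluster 8 thus cannot be called particular to it.

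Peaks were also counted at the ends of the host genes, defined as annotated genes with an exon over an element. A KAP1 peak within 1 kb of the 3′ end was found for 3 of the 8 host genes of cluster 8 (Zfp937, Zfp442 and Zfp345) and 0 of the 64 of cluster 9, against 14.5% of the 387 host genes of all elements, and the same 3 genes had a peak of the SETDB1 list there (7.24% of all). WT H3K9me3 was found at the 3′ end of Zfp937, Gm10130 and Zfp345 in cluster 8 and of 0 of 64 genes in cluster 9 (17.6% of all). At gene starts, 0 of the 72 host genes of both clusters had a peak of KAP1 (11.4% of all), of the SETDB1 list (2.33%) or of H3K9me3 in WT (6.98%) or Kap1 KO MEFs (0.258%). Kap1 KO H3K9me3 was at 0 of the 72 3′ ends as well (0.00% of all). With 500 bp each side in place of 1 kb, each of the 3 counts at the 3′ end fell to 1, and with 2 kb 1 start had KAP1. KAP1 and H3K9me3 at cluster 8 genes were thus found towards the zinc finger end, and the counts depended on the width used.

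All 8 WT H3K9me3 peaks of cluster 8 had no counterpart in Kap1 KO MEFs. This share was near that of the whole list, in which 96.8% of WT peaks had none, and the KO list was shorter. In cluster 9 there were 0 WT H3K9me3 peaks, and the single Kap1 KO peak (score 52.74, chr2:174878387-174878777) lay between genes, 8008 bp from the nearest element, and had no WT counterpart, like 89.3% of the KO list. Loss of called H3K9me3 in cluster 8 was therefore not set apart from the genome as a whole.

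Cluster 9 was not free of KAP1 outside its elements. It held 20 KAP1 peaks, or 6.76 per Mb against 22.4 per Mb in cluster 8, and 17 of them lay between genes. These rates cover the whole span and were not scaled for repeated sequence. Of the 100-base windows, 18.8% in cluster 9 and 84.5% in cluster 8 occurred once in the genome, so the rates do not show that cluster 9 is poorer in KAP1. The median distance of the 20 from the nearest element was 11117.5 bp. The highest had scores of 1016 (chr2:174980995-174981999), 605 (chr2:174986814-174987521) and 399 (chr2:176894598-176895331), the first and second of which exceeded every KAP1 peak of cluster 8. Only 1 of the 20 was in the SETDB1 list (5.00%, interval 0.127 to 24.9%), a peak of score 103 at chr2:177637988-177638510 over an exon of C330013J21Rik, and the interval holds the 22.1% of the whole KAP1 list. KAP1 in cluster 9 was thus found away from the zinc finger units.

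Reads from much of cluster 9 cannot be placed at a single position. Of its 100-base windows, the length of the study's reads, 18.8% occurred once in the genome, against 84.5% in cluster 8, and 6.76% of its bases were unknown. The median element of cluster 9 had 0% of windows found once and 39 of 68 had none, whereas the median was 68.7% in cluster 8 and 100% for the other 483 elements. Elements elsewhere with few such windows did carry peaks: of the 93 others in which under 50% of windows occurred once, 31 had a KAP1 peak and 25 a WT H3K9me3 peak, and of the 31 others with no such window, a group formed after the data were seen, 5 and 8 did. The 14 elements of cluster 9 with 50% or more had 0 peaks of any list (interval 0 to 23.2%), beside 91 with KAP1 and 96 with WT H3K9me3 of the 390 others. The part of repeated sequence in the missing peaks of cluster 9 was not tested further.

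Many elements of cluster 9 were near-identical to each other. In cluster 9, 42 of 68 elements fell into 15 groups of copies (95% identity or more), and 34 had an identical twin, whereas cluster 8 had no such group and its most alike elements reached 89.1%. The largest group held 8 elements of 1218 bp, in Gm4631, Gm4724, Gm11007, Gm2007, Gm14432, Gm14434, Gm14308 and Gm14305, that were 99.5 to 100% identical. Each had 13 or 14 zinc fingers and 1 stop codon in its best reading frame. A group of 4 in Gm2026, Gm14430, Gm14410 and Gm14325 was 95.4 to 100% identical over 1555 to 1560 bp, with 7 or 8 stop codons. A further 4, of 783 or 784 bp, lay in the pseudogenes Gm14442, Gm6182, Gm2020 and Gm14417, with 4 to 6 fingers and 0 to 22 stop codons. Of the 44 elements in protein-coding host genes of cluster 9, 2 had no stop codon in that frame, so finger counts do not show intact arrays.

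H3K27ac was found at the start of 40 of the 72 host genes in WT MEFs (55.6%). A WT peak within 1 kb of the start was found for 6 of 8 host genes of cluster 8 and 34 of 64 of cluster 9 (53.1%, interval 40.2 to 65.7%), against 61.5% of all host genes, and a Kap1 KO peak for 7 of 8 and 36 of 64, against 63.0%. Within cluster 9 it followed the annotated type, a split made after the values were seen: 33 of 44 protein-coding host genes (75.0%, interval 59.7 to 86.8%) but 1 of 20 pseudogenes (5.00%, interval 0.127 to 24.9%), namely Gm14413, had a WT peak. Elsewhere 195 of 289 protein-coding host genes (67.5%) and 3 of the 26 others (11.5%) had one, so the split by type was not particular to cluster 9. No H3K27ac peak lay at a 3′ end in either genotype, beside 1.03% of all host genes in WT and 1.29% in Kap1 KO cells.

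The highest WT H3K27ac scores of cluster 9 were at the starts of Gm14325 (3048.89), Etohi1 (2571.98) and Gm14326 (2533.8). In Kap1 KO MEFs the highest were at Etohi1 (2362.48), Gm14418 (2308.9) and Gm14401 (2159.11). In cluster 8 the highest peaks lay at chr2:150136250-150138454, at 3100 in both lists, a score that 10192 WT and 7990 Kap1 KO peaks of the genome reach or pass, and at chr2:150187163-150189266, over the start of 3300002I08Rik, with scores of 3080.15 for WT and 1622.09 for Kap1 KO. At Zfp120 the start scored 2372.93 in WT and 1501.83 in Kap1 KO MEFs, and at Zfp937 1980.69 and 1596.95.

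Most protein-coding host genes of cluster 9 had an H3K27ac peak at a like distance from the zinc finger unit. From the element of a protein-coding host gene in cluster 9, the middle of the next upstream WT H3K27ac peak lay at a median of 10093 bp, with quartiles of 9587.75 and 11803 bp and a range of 6980 to 344053 bp. In the group of 8 copies the distance spanned only 11747 to 11883 bp and the WT scores 409.39 to 750.38, although the peak was within 1 kb of the annotated start in 5 of them only. At Gm11007, Gm2007 and Gm14432 of this group, and at Gm2004 and Gm14430, the peak middle lay 3095, 3127, 3127, 3218 and 3146 bp before the annotated start; these 5 genes were singled out after their values were seen. Because the copies share their windows, their peaks are not separate measurements: of the 51 WT H3K27ac peaks of cluster 9, 30 had no 100-base window found once.

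Between genotypes, most H3K27ac peaks of the clusters were shared. Of the 48 Kap1 KO peaks of cluster 9, 2 had no WT counterpart (4.17%), and of the 51 WT peaks 4 had no KO counterpart (7.84%), against 22.8% of either whole list. In cluster 8, 2 of 10 KO peaks and 0 of 8 WT peaks were without counterpart, the KO peaks with scores of 88.94 in an intron of Zfp120 and 54.89 in an intron of Zfp442. The WT peaks without counterpart in cluster 9 were weak, with scores of 54.25 to 82.5, the highest over the pseudogene Gm14392. The 2 Kap1 KO peaks without counterpart there scored 126.45, between genes (chr2:177056076-177057098), and 307.05, at the start of Gm14406. The whole lists are an unlike background, because 40 of the 51 WT peaks of cluster 9 lay within 1 kb of a transcript start. Of the starts of other host genes, 194 had a peak in both genotypes, 4 in WT only and 7 in Kap1 KO only. In cluster 9, 30 of the 51 WT and 29 of the 48 KO peaks had no window found once. H3K27ac was thus mostly called at the same places with and without Kap1, as at host gene starts elsewhere.

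Host genes with an H3K27ac start peak in 1 genotype only were Gm14444, Gm14406 and Gm10749, all in Kap1 KO (3 of 72, and 0 in WT only). Over the 387 host genes of all elements, 10 had such a peak in Kap1 KO only and 4 in WT only. For Gm10749 the difference was one of peak width: its start lay beside a peak shared with the divergent gene Gm14124, which scored 726.73 in WT and 987.1 in Kap1 KO MEFs. For Gm14444 and Gm14406 the middle of the nearest WT peak was 99747 and 18877 bp away, while the Kap1 KO peaks scored 208.68 (chr2:174835415-174836639) and 307.05 (chr2:177361907-177363366). The peak of Gm14444 lies just before the first element of cluster 9 and is not among the 48. These genes sit at distant positions of the cluster, in opposite orientation, and were 99.7% identical over 9008 bases, with elements 99.9% identical.

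The 150 bases before the starts of this pair are shown with those of Gm14401, the gene whose shared peak differed most between the lists; these 3 promoters were picked after their values were seen. They were read 5′ to 3′ on the strand of the gene from mm9, at chr2:174835592-174835741 (plus), chr2:177362916-177363065 (minus) and chr2:176858875-176859024 (plus). Capitals mark the 2 bases without a counterpart in the other sequence of the pair.
Gm14444: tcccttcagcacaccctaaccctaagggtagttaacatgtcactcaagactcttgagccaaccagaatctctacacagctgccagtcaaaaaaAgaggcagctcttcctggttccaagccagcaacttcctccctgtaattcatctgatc
Gm14406: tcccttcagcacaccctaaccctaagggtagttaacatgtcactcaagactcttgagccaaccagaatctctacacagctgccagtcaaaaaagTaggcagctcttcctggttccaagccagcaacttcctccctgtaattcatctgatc
Gm14401: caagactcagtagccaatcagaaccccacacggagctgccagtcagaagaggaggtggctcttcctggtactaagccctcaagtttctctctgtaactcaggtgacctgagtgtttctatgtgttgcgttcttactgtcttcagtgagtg
Of the 100-base windows within 1 kb of the start, 27.1% occurred once for Gm14444 and 19.2% for Gm14406, so reads of one may have been placed at the other. For Gm14401 it was 96.4%.

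At Gm14401 the start peak scored 344.21 in WT (chr2:176857975-176859944) and 2159.11 in Kap1 KO MEFs (chr2:176857749-176861126), a ratio of 6.27 and the highest of the 55 shared peaks of both clusters. The wider KO peak covered a KAP1 peak of the Hepa 1.6 list with a score of 133 (chr2:176860118-176860731, in an intron of Gm14401), which the WT peak did not reach. At the other extreme, the start of Gm14139 scored 982.55 in WT and 282.23 in Kap1 KO MEFs, the lowest ratio of the 55. The lowest of cluster 9 was at a peak between genes (chr2:177037110-177038341, scores of 148.85 and 55.30), and the next lowest at the start of Gm14403 (1350.95 and 603.29). These extremes of the ratio and the limit of 3100 were chosen after the values were seen. Among shared peaks with both scores below 3100, the WT score was the higher in 36 of 47 in cluster 9 and 6 of 7 in cluster 8, and in 59.8% over the genome. With 1 library each, a single ratio cannot be told apart from a difference between the libraries.

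Expression values of the study were used only to rank the 560 elements, in 4 rank groups of 140 with group 1 the highest. In WT MEFs 35 of the 44 elements in protein-coding host genes of cluster 9 were in rank group 1, and 0 of the 20 in pseudogenes, of which 12 were in group 4. The split was alike in liver (33 and 0 in group 1) and ES cells (34 and 0). No scaling for element length was made before ranking. The median element of cluster 9 spanned 1348 bp in protein-coding host genes and 783 bp in pseudogenes, so rank and length were not separated. Gm14295, with the most zinc fingers and the longest element of cluster 9 (2309 bp), ranked highest there in MEFs and ES cells, and Gm14420 in liver. All 8 copies of the largest group were in MEF rank group 1, and all 4 of the pseudogene copies in group 4. Of the 37 elements of cluster 9 in MEF rank group 1, 26 had no window found once, so the ranks of single copies cannot be told apart. The methods state that RNA reads without a unique position were discarded, and how such elements came by their values is not given in the sources used here.

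In cluster 9 a WT start peak was found for 29 of the 35 host genes of elements in MEF rank group 1, with this doubt on the ranks. In groups 2, 3 and 4 it was found for 3 of 6, 1 of 11 and 1 of 12. Counts by rank group over all host genes were not made, so the pattern cannot be called particular to cluster 9. Groups 3 and 4 held 7 and 12 of the 20 elements in pseudogenes, so rank and gene type were not separated. Gm14444 and Gm14406, with a start peak in Kap1 KO MEFs only, were in rank group 3 in WT MEFs. In cluster 8, 4 elements were in MEF rank group 1, and 3 of these (Zfp937, Zfp442 and the element inside 3300002I08Rik) had a KAP1 peak. The exception was Zfp120, which ranked highest of cluster 8 in MEFs and liver. Gm10130, with H3K9me3 and no KAP1, ranked highest in ES cells. Over all 560 elements, KAP1 peaks lay over 42, 29, 25 and 30 of 140 in MEF rank groups 1 to 4, and WT H3K9me3 over 53, 33, 20 and 18. By liver rank, the closer tissue to the hepatoma line, KAP1 lay over 30, 33, 30 and 33 of 140 in groups 1 to 4. By ES rank the counts were 44, 44, 23 and 15. In cluster 8 it lay over 0 of 1 element in liver group 1, 3 of 4 in group 2 and 1 of 4 in group 4, and over 0 of 4 in ES group 1 and 4 of 5 in group 2. WT H3K9me3 lay over 35, 43, 27 and 19 of 140 by liver rank and 39, 41, 29 and 15 by ES rank. Over all elements, WT H3K9me3 was thus found more often in groups 1 and 2 than in 3 and 4 in each tissue. KAP1 did so by ES rank, had its highest count in group 1 by MEF rank and had like counts in all groups by liver rank. Differences between rank groups were not tested.

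Of the genes of the KAP1 pathway, which encode KAP1, SETDB1 and its partner ATF7IP, HP1 proteins, NuRD subunits and the DNA methylation machinery, 10 of 10 (Trim28, Setdb1, Atf7ip, Cbx1, Cbx3, Cbx5, Chd3, Hdac1, Dnmt1 and Uhrf1) had an H3K27ac peak at a transcript start in both genotypes, as did 54.5% of all protein-coding genes in WT and 53.3% in Kap1 KO MEFs. Genes used by most cells commonly have such a peak, so the count says little of the pathway. It includes Trim28 in the Kap1 KO list, and a promoter peak does not check the deletion. KAP1 itself lay at a start of 4 of the 10, Atf7ip, Cbx3, Cbx5 and Uhrf1, in Hepa 1.6 cells (18.9% of all protein-coding genes), and only that of Atf7ip was in the SETDB1 list (1.81%). KAP1 also lay at 3 of the 10 fibroblast markers (Twist1, Prrx1 and Fn1), at Cd68 and at Cdh1.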

How the data were processed

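The authors aligned 100-base reads to mm9 with Bowtie2 (version 2.2.1 in the submitters' processing notes) and called peaks per library with MACS (1.4) against total input. The value used was the score of each deposited peak. The methods state a score cutoff of 80; the deposited MEF lists start at 50. Elements came from the study's catalogue and genes from GENCODE on NCBIM37 (mm9). Peaks overlapped from 1 shared base; gene ends had 1 kb each side. Shares have exact Clopper-Pearson 95% intervals (scipy 1.17.1). Copies were grouped by single linkage at 95% identity over 80% of the longer element (edlib 1.3.9.post1). Zinc fingers were counted by the C2H2 pattern in the best of 6 frames. Overlaps were checked with bedtools 2.31.1 and tested on simulated data. Named genes were, per cluster and list, up to 5 elements with the highest scores and the 3 highest peaks off elements, elements with 2 or more marks, genes marked at an end in 1 genotype only, copy groups of 4 or more, and the elements with most fingers or highest rank. Members and lists were chosen with earlier results of these data known.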

Additional observations from a re-analysis of the deposited data

How the results depend on the processing

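Of 82 alternative settings over 22 counts, 71 stayed within 1.5 times the main count. Of these, 38 were a 0 that stayed 0, and 29 of the 38 could only narrow the count, so they say nothing about stability. Restricting elements to the 19 with 50% or more of their windows found once left 2 with KAP1 (4 in the main setting), 1 in the SETDB1 list (3) and 0 with WT H3K9me3 (3). With 500 bp at gene ends, 1 gene kept KAP1, 1 the SETDB1 list and 1 WT H3K9me3 at the 3′ end (3 each); with 2 kb, 1 gene had KAP1 at the start (0). A score of at least 80 in both lists gave 2 WT only H3K27ac peaks (4; the cutoff also drops KO counterparts), 0 Kap1 KO only H3K9me3 peaks (1) and 4 WT only H3K9me3 peaks (8), and equal numbers of peaks from both genotypes also gave 4. The stricter settings hold fewer elements, peaks or bases by construction. The KO H3K9me3 list is the shorter, and its depth was not given in the sources used here. No paired analysis was possible because each list came from 1 library. Repeated sequence limits what any peak in cluster 9 says of a single copy.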
